A study of Rattus norvegicus with 6 samples.

Results

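The epidermal growth factor family was examined in the myocardium of rats after coronary ligation. The family members considered were 6 ligands (*Areg*, *Ereg*, *Hbegf*, *Tgfa*, *Btc* and *Nrg1*) and 4 receptors (*Egfr*, *Erbb2*, *Erbb3* and *Erbb4*), chosen by family membership. All 10 symbols matched exactly 1 row each among the 32623 genes of the deposited table. RNA sequencing covered 3 sham-operated and 3 ischemia samples of wild-type (WT) male rats. In the ischemia group blood flow through the left anterior descending coronary artery had been stopped by a ligature for 30 min, with ST-segment elevation as the check of occlusion. The sham samples carry the same time in their titles, and their labels describe no ligation. Strain and age were not given in the sources used here, and nothing states which part of the heart was taken or that each sample is 1 animal, so p-values measure the spread between these samples.

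Ligands of this family are made as membrane-anchored precursors, and metalloproteases of the ADAM family cut them free from the cell surface. *Areg* (amphiregulin) and *Tgfa* (transforming growth factor alpha) bind *Egfr*, whereas *Hbegf* (heparin-binding EGF-like growth factor), *Btc* (betacellulin) and *Ereg* (epiregulin) bind *Egfr* and *Erbb4*, and *Nrg1* (neuregulin 1) binds *Erbb3* and *Erbb4*. Bound receptors pair with each other, most often with *Erbb2*, which has no known ligand of its own, and signal through the Ras-ERK and PI3K-Akt cascades. In the heart, *Nrg1* from the endothelium acts on *Erbb2* and *Erbb4* of cardiomyocytes, a route needed for heart development and for the upkeep of adult heart muscle.

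Total counts were between 68529126 and 79591989 per sample, at which 3 counts equal 0.0377 to 0.0438 CPM (counts scaled to library size), a limit that covers counting error only. Several libraries stood apart in ways their group labels do not describe. On 3 Y-linked genes only 26 reads were found in sham replicate 1, while the other samples had 1772 to 4318, and the labels describe all rats as male. The summed FPKM of 5 atrial markers was 48344 and 39345 in sham replicates 1 and 3 and 215.5 in sham replicate 2. As a sum, the cardiomyocyte markers were high in every sample, with FPKM of 9 genes adding up to between 12794 and 43786. Some single markers varied more. *Myh6*, *Actc1* and *Ryr2* were lower in each ischemia sample than in any sham sample, while 2 of the 9 had a log2 fold change above 0. *Myl3* had FPKM of 796, 9024 and 1021 in sham replicates 1 to 3. In bulk tissue, fewer cells of a type and less RNA per cell cannot be told apart.

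The ligand *Hbegf* had higher FPKM in all 3 ischemia samples than in any sham sample, 13.9-fold in the edgeR fit, whereas the ischemia samples of every receptor overlapped those of sham. With the quasi-likelihood test of edgeR, 0 of the 7 members with a mean FPKM of at least 0.5 passed an adjusted p of 0.05, where 6.71% of all 13964 genes tested did. At an unadjusted p under 0.05 in edgeR there were 2, *Hbegf* and *Areg*, where 32.4% of all genes reached that level. DESeq2, run as an alternative, called 1 of the 7 members, *Hbegf*, where it called 27.5% of all genes. *Ereg*, *Btc* and *Erbb4* lay below the expression limit, and their values come from the same test fitted on all 20541 genes with a count. The edgeR adjusted p-values of these 3 were between 0.0724 and 0.209. FPKM values of the groups did not overlap for 3 of the 10 members (*Hbegf*, *Ereg* and *Btc*), each of them higher in ischemia. Among all 20541 genes 30.1% had no overlap, and 17.5% had none and were higher.

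**Figure D1:**
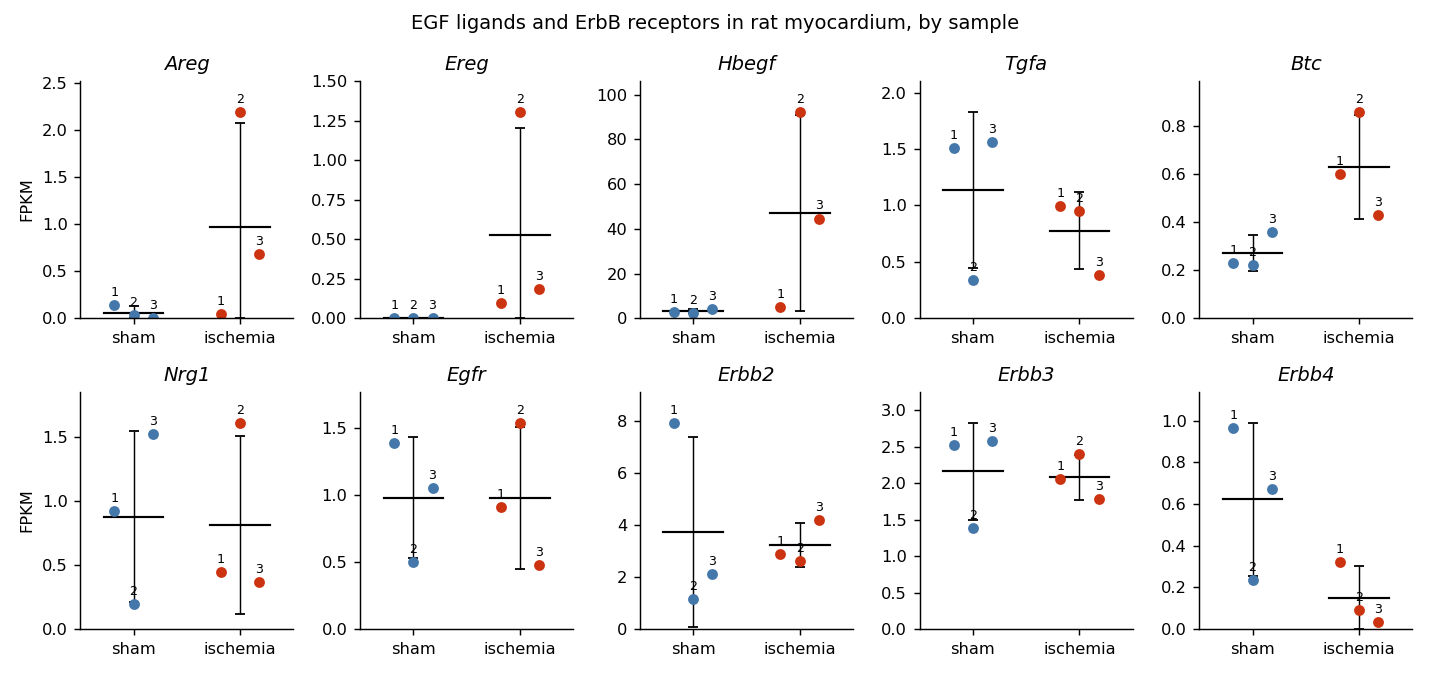
FPKM (linear axes) of each member in the 3 sham and 3 ischemia samples, with points numbered by replicate, bars at the group mean and whiskers at 1 SD, cut at 0. *Hbegf* reached 92.3 and 44.6 FPKM in ischemia replicates 2 and 3 and 4.82 in replicate 1, while the receptors lay at or below 7.94.

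*Hbegf*, an activator of *Egfr* and *Erbb4* that is retained by heparan sulfate at the cell surface, was the ligand with the highest level in each of the 6 samples. The gene (ENSRNOG00000018646) occupies bases 29329764 to 29340403 of the minus strand of chromosome 18, in the coordinates of the deposited table, whose genome build is not given in the sources used here. In sham its FPKM was 2.90, 2.34 and 4.23 (replicates 1 to 3, the order used throughout), and in ischemia it was 4.82, 92.3 and 44.6. Each ischemia sample was above each sham sample, but replicate 1 exceeded the highest sham sample only slightly. These values rest on 510, 438 and 708 sham counts and on 916, 15955 and 7300 ischemia counts, so depth did not limit the comparison. Sham averaged 3.16 ± 0.970 FPKM (SD, n = 3) and ischemia 47.2 ± 43.8 FPKM (SD, n = 3). On the log2 scale *Hbegf* was 3.80 ± 0.95 (SE) higher in ischemia, a 13.9-fold difference, at an edgeR adjusted p of 0.0612, just short of the threshold. The exact permutation test gave p 0.1, two-sided, which is the smallest p that 3 samples against 3 can give. Single ischemia samples moved this value. Without replicate 2 it was 2.97 ± 0.86 (SE) on the log2 scale (edgeR adjusted p 0.110). Without replicate 1 the difference was 4.32 ± 0.35 (SE) on the log2 scale (edgeR adjusted p 0.0123), in a fit that called 10.7% of all genes higher. With all samples DESeq2 gave 3.77 (adjusted p 7.86e-05), and it called 14.9% of all genes higher.

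*Areg* and *Ereg* are neighbours on chromosome 14 and encode low-affinity activators of *Egfr* that are induced in many injured tissues. Counts of *Areg* (ENSRNOG00000002754, 18521930 to 18531179, minus strand) reached 12, 4 and 0 in the sham samples against 4, 188 and 56 in the ischemia samples. Ischemia replicates 2 and 3 were above all sham samples, whereas replicate 1 lay within the sham range. The log2 fold change of 3.85 ± 1.58 (SE) had an edgeR adjusted p of 0.151 and a DESeq2 adjusted p of 0.0560. In edgeR it moved between 2.56 without ischemia replicate 2 and 5.10 without sham replicate 1, and limma gave 2.09 on log2(FPKM + 0.1) and 0.75 on log2(FPKM + 1), scales that understate differences of low genes. In FPKM, the scale per gene length, *Areg* went from 0.0580 ± 0.0715 (SD, n = 3) in sham to 0.971 ± 1.10 (SD, n = 3) in ischemia, so that even its highest sample (2.19) was far below the 92.3 FPKM of *Hbegf* in that sample. Its mean over all 6 samples, 0.514, exceeded the limit of 0.5 only through ischemia.

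The *Areg* promoter is shown because *Areg* was the one member whose promoter held a cyclic AMP response element, the palindromic binding motif of CREB and ATF proteins. Promoters of 7 of the 10 members matched by symbol in RefSeq (build GRCr8), each covering 250 bases before to 50 bases after the gene start, and those of *Ereg*, *Nrg1* and *Erbb3* did not match. Searched on both strands, the motif TGACGTCA was found in 1.83% of all 33469 promoters. In *Areg* it starts 91 bases before the gene start. The 30 bases around it, with the motif in capitals, lie at chr14:17265714-17265743 in GRCr8 on the minus strand and read 5′ to 3′ as follows.
Areg promoter: caggagaggcgTGACGTCAcgggcggtggt
The TATA motif TATAAA, held by 14.2% of all promoters on either strand, also occurred in *Areg*, 61 bases before the start, and in none of the other 6 members with a promoter. The AP-1 motif TGANTCA, held by 7.33% of all promoters, occurred in none of the 7. Such matches describe the letters of this window and say nothing about binding.

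*Ereg* (ENSRNOG00000002771, 18576355 to 18591394, minus strand) had 0 counts in all 3 sham samples and 17, 206 and 28 counts in ischemia replicates 1 to 3. Reads were thus present in each ischemia library and in no sham library, with most of them in ischemia replicate 2. Against a floor of 3 counts per sham library, the mean of the ischemia samples was at least 28.5-fold higher, and at least 7.67-fold higher without ischemia replicate 2. Fitted without the expression limit, the adjusted p was 0.0724 in edgeR, which called 2.85% of the 20541 genes in either direction, and 3.85e-05 in DESeq2, which called 11.4% higher. Without ischemia replicate 1 the edgeR adjusted p was 0.0411, in a fit that called 6.13% higher. Ischemia FPKM were 0.0955, 1.30 and 0.186, a low level per gene length.

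*Btc*, a ligand of *Egfr* and *Erbb4* on the same stretch of chromosome 14 (ENSRNOG00000002728, 18231860 to 18272484, plus strand), had FPKM of 0.231, 0.223 and 0.358 in sham and 0.601, 0.858 and 0.428 in ischemia. All ischemia values lay above all sham values, with the lowest ischemia sample, replicate 3, close to the highest sham sample. The sham libraries held 44, 45 and 65 counts and the ischemia libraries 123, 159 and 76. The resulting log2 fold change, 1.13 ± 0.47 (SE), did not pass (edgeR adjusted p 0.198). *Btc* had the smallest difference of the ligands that were higher in ischemia, and it was the one with the smallest SE.

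The remaining ligands did not follow this direction. *Tgfa* (ENSRNOG00000016182, chromosome 4, 117962319 to 118046344, plus strand) had FPKM of 1.5, 0.336 and 1.56 in sham and 0.993, 0.95 and 0.387 in ischemia. Its ischemia samples lay between the low sham replicate 2 and the other sham samples, giving a log2 fold change of -0.58 ± 0.59 (SE; edgeR adjusted p 0.515). *Nrg1* (ENSRNOG00000010392, chromosome 16, 63837216 to 64057434, plus strand), the ligand of *Erbb3* and *Erbb4*, had sham FPKM of 0.920, 0.192 and 1.53 against 0.449, 1.62 and 0.370 under ischemia. Both groups spanned nearly the same range. The log2 fold change was -0.17 ± 0.79 (SE; edgeR adjusted p 0.895), and it turned positive without sham replicate 3 (0.44) or without ischemia replicate 1 (0.083) or 3 (0.15). A difference smaller than this spread was not detectable for *Nrg1* or *Tgfa*.

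The 6 ligands together had FPKM of 5.69, 3.13 and 7.68 in sham, compared with 7.0, 99.2 and 46.7 in ischemia. *Hbegf* made up 50.9% to 74.9% of that sum in sham and 68.9%, 93.0% and 95.6% in ischemia. The other 5 ligands summed to 2.79, 0.787 and 3.45 in sham and to 2.18, 6.92 and 2.05 in ischemia, and the groups overlapped. The receptor sum was 12.8, 3.29 and 6.40 in sham and 6.17, 6.64 and 6.51 in ischemia, with the ischemia samples inside the sham range. The ratio of the ligand sum to the receptor sum, both on the FPKM scale, was 0.444, 0.953 and 1.2 in sham and 1.13, 14.9 and 7.17 in ischemia. Ischemia replicate 1 therefore had a ratio like that of sham, while replicates 2 and 3 were above all sham samples.

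The groups overlapped for all 4 receptors, and their edgeR adjusted p-values were between 0.209 and 0.920. *Egfr* (ENSRNOG00000004332, chromosome 14, 99919485 to 100098796, plus strand), which binds all of the ligands above except *Nrg1*, had FPKM of 1.39, 0.50 and 1.05 in sham and 0.910, 1.54 and 0.481 in ischemia. Group means were 0.981 ± 0.450 (SD, n = 3) and 0.977 ± 0.533 (SD, n = 3), and the log2 fold change was -0.082 ± 0.49 (SE; edgeR adjusted p 0.920). Its sign depended on single samples, being positive without sham replicate 1 (0.21) and without ischemia replicate 3 (0.22).

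*Erbb2* (ENSRNOG00000006450, chromosome 10, 86367596 to 86391728, plus strand), the shared partner of the other receptors, had FPKM of 7.94, 1.16 and 2.10 in sham and 2.88, 2.61 and 4.21 in ischemia. Sham replicate 1 stood far above the remaining 5 samples, and it is also the sham library with few Y-linked reads. The log2 fold change was -0.22 ± 0.66 (SE; edgeR adjusted p 0.839). Without sham replicate 1 the direction turned and each ischemia sample was above both remaining sham samples, with a log2 fold change of 0.90 ± 0.38 (SE; edgeR adjusted p 0.236). The table also lists an snRNA within *Erbb2* on the opposite strand, and whether counting used the strand is not given in the sources used here.

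*Erbb3* (ENSRNOG00000004964, chromosome 7, 2989340 to 3010350, minus strand), a receptor with little kinase activity of its own, had the smallest SE among the members. Its FPKM was 2.52, 1.39 and 2.58 in sham and 2.06, 2.40 and 1.78 in ischemia, with a log2 fold change of -0.12 ± 0.23 (SE; edgeR adjusted p 0.736). *Erbb3* is also a known product of Schwann cells. The summed FPKM of 6 Schwann cell markers was 29.7, 55.2 and 86.2 in sham and 17.4, 6.93 and 5.65 in ischemia. Of the 6 markers tested 3 fell in edgeR, where 1.53% of all genes did. At an unadjusted edgeR p under 0.05 there were 5, where 32.4% of all genes reached that level. DESeq2 called 5 lower, where it called 12.6% of all genes lower. The marker sums of the groups did not overlap, and the ischemia values of *Erbb3* lay within its sham range. The part of Schwann cells in the *Erbb3* values was not tested.

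*Erbb4* (ENSRNOG00000014248, chromosome 9, 75021790 to 75528644, minus strand), the neuregulin receptor of cardiomyocytes, had FPKM of 0.964, 0.233 and 0.674 in sham and 0.322, 0.090 and 0.0343 in ischemia. Ischemia replicates 2 and 3 were below all sham samples, whereas replicate 1 was above sham replicate 2. The reads behind them numbered 279, 72 and 186 in sham, compared with 101, 26 and 10 in ischemia. Its log2 fold change of -2.05 ± 0.87 (SE), a 4.14-fold lower level, did not pass (edgeR adjusted p 0.209, p 0.2 by exact permutation). Without ischemia replicate 1 the log2 fold change was -3.33 ± 0.78 (SE; edgeR adjusted p 0.0481), in a fit that called 4.27% of the 20541 genes lower. The atrial marker sum was 48344, 215.5 and 39345 in sham and 9610, 2078 and 1279 in ischemia. Within each group its samples had the same order as those of *Erbb4*. The mesothelial marker sum had that order too (113.8, 51.8 and 79.5 in sham, 33.6, 6.15 and 5.11 in ischemia). Across groups the atrial order differed, as ischemia replicates 2 and 3 had more atrial signal than sham replicate 2 and less *Erbb4*. The part of tissue composition in the *Erbb4* difference was not tested.

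**Figure D2:**
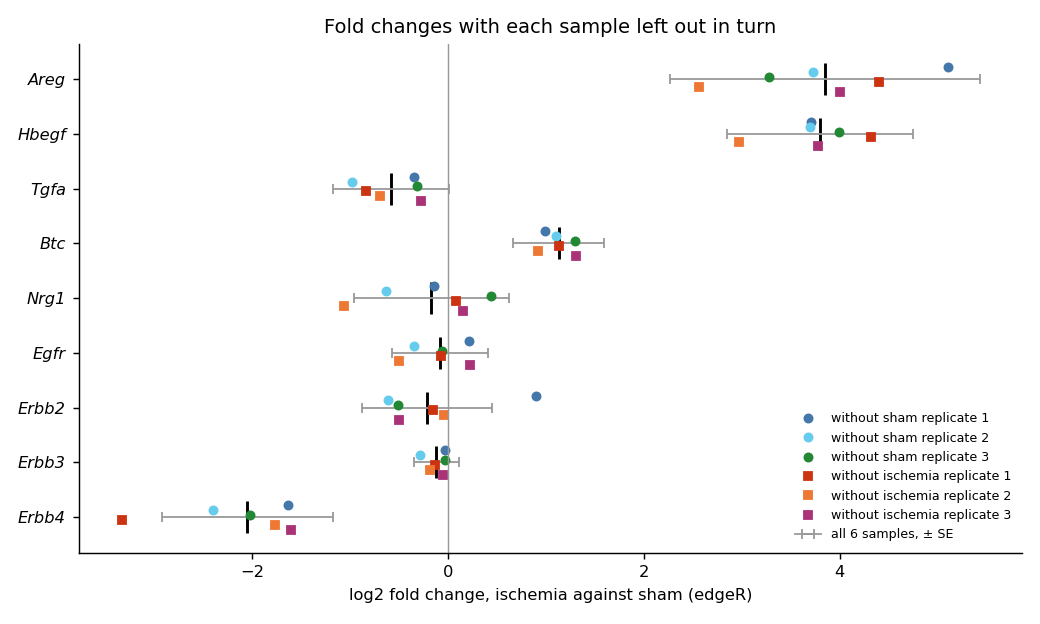
Log2 fold change of ischemia against sham (edgeR) for 9 members. Grey bars give the value of all 6 samples ± SE with a black tick at the value, and coloured points the fits that leave out 1 sample (circles for sham, squares for ischemia). *Ereg* is not drawn because it had no sham reads. *Hbegf*, *Areg* and *Btc* were above 0 and *Erbb4* and *Tgfa* below 0 in every fit shown, while *Erbb2* moved to 0.90 without sham replicate 1.

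The samples with the highest and lowest values differed between members. Sham replicate 2 had the lowest sham value of 8 of the 10 members, namely all but *Areg* and *Ereg*, and it was also the lowest sham sample for 63.8% of all genes tested. Ischemia replicate 2 had the highest ischemia value of 7 of the 10 members, where it was the highest for 49.3% of all genes tested. *Areg*, *Ereg* and *Hbegf* had the same order in ischemia, with replicate 2 highest, replicate 3 next and replicate 1 lowest. *Tgfa* and *Erbb4* were instead highest in ischemia replicate 1. Ischemia replicate 3 was the lowest for the 6 members *Tgfa*, *Btc*, *Nrg1*, *Egfr*, *Erbb3* and *Erbb4*, and for 27.8% of all genes tested.

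Ordered by mean FPKM in sham, the members were *Erbb2* (3.73), *Hbegf* (3.16), *Erbb3* (2.16), *Tgfa* (1.14), *Egfr* (0.981), *Nrg1* (0.879), *Erbb4* (0.623), *Btc* (0.270), *Areg* (0.0580) and *Ereg* (0). Neighbours in this order overlapped between samples except *Btc* and *Areg*. In ischemia *Hbegf* (47.2) came first, followed by *Erbb2* (3.23), *Erbb3* (2.08) and *Egfr* (0.977), and the samples of neighbours did not overlap down to *Egfr*. The following members, *Areg* (0.971), *Nrg1* (0.811), *Tgfa* (0.777), *Btc* (0.629), *Ereg* (0.529) and *Erbb4* (0.149), each overlapped with their neighbour. *Erbb4* thus moved from the seventh place to the last, and *Areg* from the ninth to the fifth, in an order whose lower part is not separated by these samples.

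The genes whose pattern was most like that of *Hbegf* over the 6 samples were *Tgfbi*, *Tbc1d1* and *Arf2*, with Pearson r of 0.998, 0.998 and 0.997 on log2(CPM + 0.5). *Tgfbi*, which encodes an extracellular matrix protein, had FPKM of 25.1, 21.2 and 27.5 in sham and 33.4, 137.1 and 94.4 in ischemia. These 3 genes share with *Hbegf* the small step from sham to ischemia replicate 1 and the larger step to replicates 2 and 3. Such likeness was common, as 297 genes had an r of at least 0.95. It rests on the same 6 libraries and is a description only.

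*Btc*, *Areg*, *Ereg* and the further ligand gene *Epgn* lie side by side on chromosome 14 within 402.4 kb, with 249.4 kb between *Btc* and *Areg*, 45.2 kb between *Areg* and *Ereg* and 35.2 kb between *Ereg* and *Epgn*. *Epgn* had 0 counts in all 6 samples. Within 300 kb of this cluster the table lists 8 other protein-coding genes, looked at after the values of the ligands had been seen. They include the neutrophil-attracting chemokines *Cxcl1*, *Cxcl2*, *Cxcl3* and *Cxcl6*, which rose with edgeR log2 fold changes of 5.68, 8.96, 10.04 and 8.01 and adjusted p-values of 0.0291, 0.0361, 0.0303 and 0.0272. *Cxcl2*, *Cxcl3* and *Cxcl6* were below the expression limit in sham and entered the test only through ischemia. *Cxcl2* went from 13, 11 and 19 counts in sham to 946, 21031 and 1789 in ischemia, with the lowest ischemia sample in replicate 1, as for *Ereg* and *Areg*. *Cxcl1* (3124, 9999 and 1704 ischemia counts) and *Cxcl6* (2264, 2656 and 1707) were instead lowest in replicate 3. The flanking genes *Parm1* (0.57, edgeR adjusted p 0.359) and *Mthfd2l* (0.40, edgeR adjusted p 0.511), which lies between *Epgn* and the chemokines, did not pass. *Pf4* (1.2, edgeR adjusted p 0.135) did not pass either, and *Ppbp* was below the expression limit.

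Whether further genes of the pathway differed was asked with 6 lists of 80 genes, of which 75 were tested. The lists were chosen with earlier results of these data known, so the share that rose is not independent of these data. Of these 75 genes 12 rose (16%) and 0 fell, where 5.18% of all genes tested rose and 1.53% fell, and their median log2 fold change was 0.50 against -0.0015 over all genes tested. Of the 12 genes, 4 (*Adam8*, *Adam12*, *Spred3* and *Etv4*) had a sham mean FPKM under 0.5 and so passed the expression limit only through ischemia, which favours a higher value. The number of calls moved with single samples. None of the 75 passed in edgeR when sham replicate 1, 2 or 3 or ischemia replicate 3 was left out, and in those fits 0 of all 13964 genes passed, although 3020 to 3809 had an unadjusted p under 0.05. Leaving out ischemia replicate 1 gave 23 higher genes, in the fit that called 10.7% of all genes higher. Leaving out ischemia replicate 2 gave 10, in a fit that called 3.31% of all genes higher. Of the other ligands *Nrg4* alone was tested, with mean FPKM of 1.26 in sham and 0.631 in ischemia (-1.10 ± 0.80 (SE), edgeR adjusted p 0.360), *Egf* and *Nrg2* had mean FPKM of at most 0.0688 in either group, and *Nrg3* was not analysed here.

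Among 11 genes of ligand shedding 3 rose, where 5.18% of all genes tested did. The other 8 did not pass and 0 fell, with a median log2 fold change of 0.42 over the 11 genes. *Adam8*, a metalloprotease of myeloid cells, rose by 6.21 on the log2 scale (edgeR adjusted p 0.0361), with FPKM of 0.435, 0.22 and 0.845 in sham and 8.12, 91.9 and 18.9 in ischemia. *Adam12*, a sheddase of *Hbegf*, rose by 4.71 (edgeR adjusted p 0.0304) from FPKM of 0.0883 ± 0.0572 to 2.50 ± 1.51 (SD, n = 3 each). *Rhbdf2*, which encodes the rhomboid-like protein iRhom2 needed to mature *Adam17*, rose by 1.92 (edgeR adjusted p 0.0478). *Adam17* itself, the main sheddase of *Areg*, *Tgfa* and *Ereg*, had 0.83 ± 0.31 (SE; edgeR adjusted p 0.130), and *Adam10* had -0.046 (edgeR adjusted p 0.933). The lowest value was that of *Bace1*, -0.89, with an edgeR adjusted p of 0.0944.

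Of 11 genes that inhibit or degrade the receptors none passed the test in edgeR in either direction, where 6.71% of all genes tested did. At an unadjusted edgeR p under 0.05 there were 5, where 32.4% of all genes reached that level. DESeq2 called 3 higher and 0 lower, where it called 14.9% of all genes higher and 12.6% lower. The highest value was that of *Errfi1*, which encodes the *Egfr* inhibitor Mig6. Its FPKM was 9.34, 7.08 and 9.51 in sham and 17.1, 95.6 and 23.9 in ischemia, all higher than in sham, with a log2 fold change of 2.27 ± 0.62 (SE) and an edgeR adjusted p of 0.0730. *Cblc* had the lowest value (-1.02, edgeR adjusted p 0.286). Among 11 tested inhibitors of the ERK cascade *Spred3* alone rose in edgeR (4.04 ± 0.47 (SE), edgeR adjusted p 0.0272), where 5.18% of all genes tested rose. Its FPKM was 0.435, 0.245 and 0.307 in sham and 2.87, 8.46 and 6.08 in ischemia. Of these 11 inhibitors 5 had an unadjusted edgeR p under 0.05, and DESeq2 called 3 higher and 0 lower. *Dusp6*, the ERK phosphatase, had 2.13 (edgeR adjusted p 0.0692), *Spry4* had 1.41 (edgeR adjusted p 0.0607) and *Spred2* the lowest value, -0.49 (edgeR adjusted p 0.319).

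The adaptors and kinases between receptor and ERK or Akt had a median log2 fold change of -0.064 over 26 genes. Of them 1 rose, where 5.18% of all genes tested did. That gene was *Stat3*, a transcription factor that ErbB receptors and cytokine receptors activate, with FPKM of 40.1, 35.2 and 38.4 in sham and 116.9, 99.6 and 102.4 in ischemia (log2 fold change 1.40 ± 0.19 (SE), edgeR adjusted p 0.0286). *Stat3* was raised to a like level in all ischemia samples, replicate 1 included, unlike *Hbegf*. *Pik3r2* had the lowest value (-1.0, edgeR adjusted p 0.114). Of the 76 tested genes that the table itself places in the ErbB signaling pathway 3 rose (*Cdkn1a*, *Eif4ebp1* and *Myc*) and 0 fell, and the median was 0.025. This share of 3.95% was below the 5.18% of all genes tested that rose.

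Genes known to respond to ERK had the largest share of calls among the 6 lists. Of 15 genes 7 rose, where 5.18% of all genes tested did. The other 8 did not pass and 0 fell, with a median log2 fold change of 2.22 over the 15 genes. *Plaur*, the urokinase receptor, rose by 4.87, *Fosl1*, an AP-1 subunit, by 4.69, *Myc* by 4.29 and *Egr2* by 3.04, with edgeR adjusted p-values of 0.0359, 0.0385, 0.0246 and 0.0425. *Junb*, *Ier3* and *Etv4* also rose. *Fosl1* went from FPKM of 0.878, 0.773 and 0.750 in sham to 3.65, 44.0 and 20.6 in ischemia, with its ischemia samples in the order of *Hbegf*. *Etv4*, in contrast, was even across ischemia, with FPKM of 0.502, 0.363 and 0.520 in sham and 2.12, 1.98 and 2.21 in ischemia. *Etv5* had the lowest value, -0.14 (edgeR adjusted p 0.698). These genes respond to many signals, and the ErbB receptors' part in their levels was not tested.

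**Figure D3:**
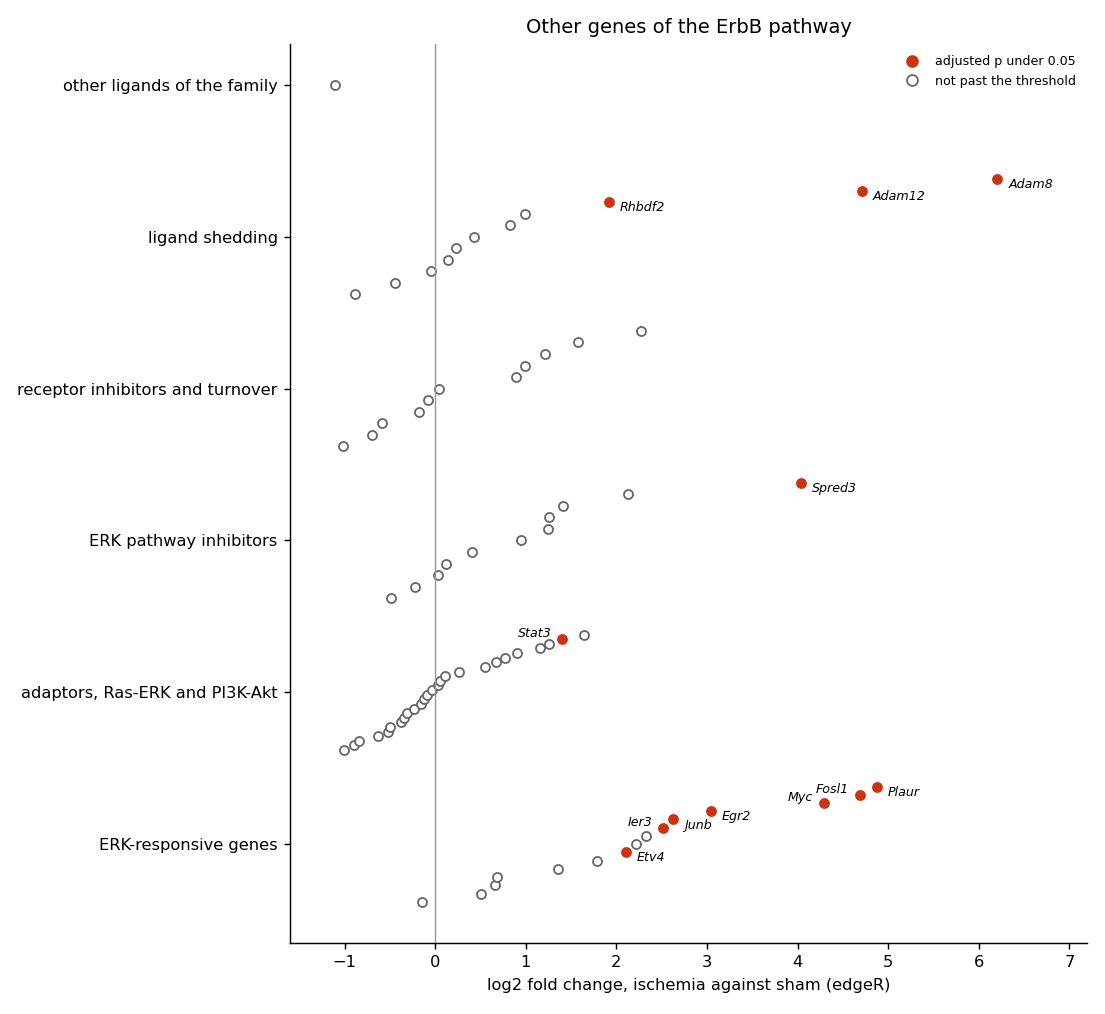
Log2 fold change of ischemia against sham (edgeR) for 75 tested genes of 6 pathway lists, 1 point per gene, with genes past an adjusted p of 0.05 filled and named. The 12 named genes are all above 0, and 7 of them are ERK-responsive genes.

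Markers of other cells moved with the groups. The 12 tested of 13 neutrophil and monocyte markers rose in edgeR, with a median log2 fold change of 5.99, where 5.18% of all genes tested rose. DESeq2 called 10 of the 12 higher, where it called 14.9% of all genes higher. Of the 12, 5 had a sham mean FPKM under 0.5 and were tested only because ischemia was high, and the marker not tested was without reads in sham. Their summed FPKM was 145.6, 121.0 and 196.4 in sham and 2239, 8994 and 2390 in ischemia. Ischemia replicate 2 had the highest sum and the highest *Hbegf*, *Areg* and *Ereg*, and it was the highest ischemia sample for 49.3% of all genes tested. Ischemia replicates 1 and 3 had sums close to each other. Their *Hbegf* was 4.82 and 44.6 FPKM, their *Areg* 4 and 56 counts and their *Ereg* 17 and 28 counts. The part of neutrophils and monocytes in the ligand values was not tested. Of 6 macrophage and leukocyte markers 2 rose and 0 fell in edgeR, and DESeq2 called 5 higher. All 6 had an unadjusted edgeR p under 0.05, where 32.4% of all genes tested did. The macrophage marker *Adgre1* had a log2 fold change of -1.13. The sums of the 6 markers were 29.5 to 49.3 in sham and 67.2 to 197.8 in ischemia. The 6 mesothelial markers had sums of 51.8 to 113.8 in sham and 5.11 to 33.6 in ischemia, and 0 of 6 passed in edgeR, with 2 at an unadjusted p under 0.05 and 2 called lower by DESeq2. Endothelial markers, from the main source of cardiac *Nrg1*, had sums of 238.2 to 253.3 in sham and 264.6 to 277.3 in ischemia, with 0 of 7 past the edgeR test, 2 at an unadjusted p under 0.05 and 1 called lower by DESeq2. None of the tested atrial (5), cardiomyocyte (9), fibroblast (7), smooth muscle and pericyte (6), adipocyte (5) or epithelial (3) markers passed in edgeR, where 1, 3, 4, 1, 1 and 0 of them had an unadjusted p under 0.05 and DESeq2 called 0, 3, 4, 1, 1 and 0 lower, with 12.6% of all genes called lower by DESeq2, although the median log2 fold change of the atrial markers was -3.66 and that of the adipocyte markers was -3.40.

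**Figure D4:**
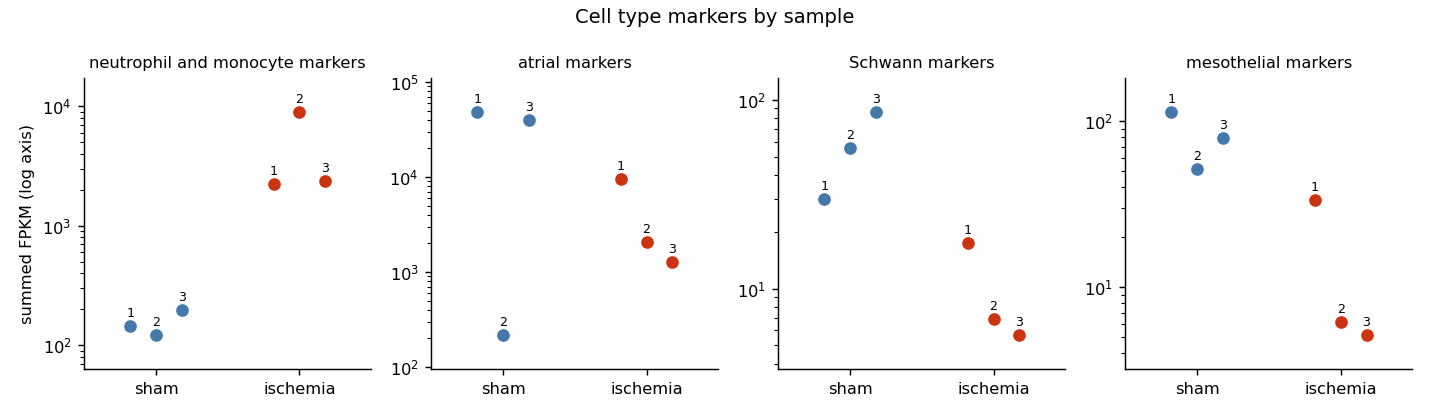
Summed FPKM (log axes) of markers of 4 cell types in each sample, numbered by replicate. Neutrophil and monocyte markers were at 2239 or more in ischemia and at 196.4 or less in sham, and atrial markers spanned 215.5 to 48344 within sham.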

How the data were processed

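Total RNA of rat myocardium had been sequenced from stranded libraries. The submitters' processing notes name STAR and HTSeq without versions. Genome build and annotation were not given in the sources used here. The authors deposited 1 table of raw read counts per gene, whole numbers without normalization. The deposited FPKM values, which divide counts by gene length and library total, list genes without reads at 0.0001, which was read as 0.

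Groups and replicate numbers came from the sample titles. Ischemia was compared with sham by the quasi-likelihood test of edgeR 4.0.16 in R 4.3.3 on the counts, with TMM scaling and no covariate, over the 13964 genes whose mean FPKM reached 0.5. Two-sided p-values received the Benjamini-Hochberg adjustment across all genes tested, and the SE came from the F statistic. *Ereg*, *Btc* and *Erbb4*, below that limit, were taken from the same fit over the 20541 genes with any count. Listed symbols with no row (1 of 80 pathway genes) had no value. Alternatives were limma 3.58.1 on log2(FPKM + 0.1) and log2(FPKM + 1), DESeq2 1.42.0, other filters and scalings, the replicate number as a block and each sample left out. The tests were also run on simulated counts, drawn for each gene separately from fitted means and spreads. Such counts do not reproduce libraries that stand apart, and no result here rests on them. The members and lists were chosen with earlier results of these data known. All members were named, and from each pathway list the called genes and those with the highest and lowest fold change, of which 1 gene is not reported here. *Adam10*, *Adam17*, *Dusp6*, *Spry4*, *Etv4* and the chromosome 14 neighbours were added after their values were seen. Figures used matplotlib 3.10.9. Reads were not analysed here.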

Additional observations from a re-analysis of the deposited data

How the results depend on the processing

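*Hbegf*, *Areg*, *Ereg* and *Btc* were higher and *Tgfa*, *Erbb3* and *Erbb4* lower in ischemia in every alternative that gave them a value. The stricter limit, a mean FPKM of at least 5, kept *Hbegf* as the only member (3.76, edgeR adjusted p 0.0542). *Hbegf* ranged from 2.83 to 4.32, with adjusted p-values from 7.86e-05 in DESeq2 to 0.192 in edgeR without sham replicate 1. With DESeq2, *Hbegf* (3.77) and *Ereg* (8.68) passed, and 2071 genes were higher and 1742 lower over all genes, 1 member higher, and 25 listed pathway genes higher and 4 lower. The fitted values of *Ereg* depend on the prior count because sham had no reads. With total count scaling 83 genes were lower, and without the expression limit 93. With the stricter limit 1 listed pathway gene was lower. *Erbb2* turned positive with limma on log2(FPKM + 0.1) (0.21) and log2(FPKM + 1) (0.094). What caused these changes was not tested.

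When each sample was left out in turn, 0 to 1490 genes were higher and 0 to 1115 lower, 0 to 1 tested members higher, and 0 to 23 listed pathway genes higher and 0 to 2 lower. In the 4 such fits with 0 calls, 3020 to 3809 genes had an unadjusted edgeR p under 0.05. *Hbegf* ranged from 2.97 to 4.32, *Ereg* from 7.53 to 9.76 and *Erbb4* from -3.33 to -1.6, each passing without ischemia replicate 1 only. *Nrg1* ranged from -1.06 to 0.44, *Egfr* from -0.50 to 0.22 and *Erbb2* from -0.61 to 0.90.

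Same-numbered samples of the groups did not deviate together (correlations of -0.056, -0.094 and -0.20), so the numbers were not taken as pairs. With the replicate block 0 genes were higher and 0 lower, 0 listed pathway genes were higher, *Erbb2* was 0.18 and *Hbegf* 3.13 (edgeR adjusted p 0.164), and 3349 genes had an unadjusted p under 0.05.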
